A study of Homo sapiens with 3 samples.

Results

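Output and negative feedback genes of the ERK branch of MAPK signalling were examined in MV-4-11 cells, with and without the conjugate FL-Fc-DM1. MV-4-11 is a human acute leukaemia line established from blood. The genes were 3 dual-specificity phosphatases (DUSP4, DUSP5 and DUSP6), 3 Sprouty genes (SPRY1, SPRY2 and SPRY4), 2 SPRED genes (SPRED1 and SPRED2), PHLDA1 and the ETS factor gene ETV5. They were chosen by symbol, and all 10 were found among the 20332 genes of the deposited expression table. A total of 7 members passed the expression minimum of a mean of 1 CPM (counts scaled to 1000000 per library), as did 11322 genes in all. SPRY1, SPRY4 and SPRED1 did not pass. The rule used symbols alone and no measured value, but the members were proposed with earlier results of these data known.

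The study had 3 libraries of polyadenylated RNA, 1 per group. The labels give untreated cells cultured for 1 day, cells treated for 1 day with 0.5 nM FL-Fc-DM1 and cells treated for 1 day with 1.5 nM, all recorded as wild type. FL-Fc-DM1 couples an Fc-fused form of FLT3 ligand to DM1, a maytansine derivative that disrupts microtubules, and MV-4-11 carries an internally duplicated, constitutively active FLT3. The series compares the transcriptomes of the treated and untreated cells. Because each group is 1 library of the same cell line, no difference has a replicate behind it, no test between conditions was possible, and every ratio compares libraries. The expression table numbers its columns 0, 1 and 2 without doses; column 0 was taken as untreated, 1 as 0.5 nM and 2 as 1.5 nM, and exchanging the treated columns would exchange every statement on the doses.

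ERK signalling starts at receptor tyrosine kinases such as FLT3, runs through RAS, RAF and MEK to ERK, and switches on transcription of its own inhibitors. DUSP proteins remove the activating phosphates from ERK in the nucleus or cytoplasm, while Sprouty and SPRED proteins act further up, at the level of RAS and RAF. The RNA of these genes is therefore widely used as a readout of ERK output, and in FLT3-mutant leukaemia cells ERK is among the pathways that the receptor keeps active.

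The 250 bases before the annotated gene start are shown for PHLDA1, the member with the largest ratio, and for DUSP6 and SPRY2, the members with the lowest ratios at 1.5 nM. The sequences are RefSeq's, on build GRCh38.p14, and each is written on the minus strand, which is the gene's strand. The windows are chr12:76031777-76032026 for PHLDA1, chr12:89352502-89352751 for DUSP6 and chr13:80341127-80341376 for SPRY2. Capitals mark matches to 2 short motifs on either strand, the ETS core CCGGAA and TGAATG, the core bound by the repressor CIC (capicua), whose repression ERK relieves.
PHLDA1: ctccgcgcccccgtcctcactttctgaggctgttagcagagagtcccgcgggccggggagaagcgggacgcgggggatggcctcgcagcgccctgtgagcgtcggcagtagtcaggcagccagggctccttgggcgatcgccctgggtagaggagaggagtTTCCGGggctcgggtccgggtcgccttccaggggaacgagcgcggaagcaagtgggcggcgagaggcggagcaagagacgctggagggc
DUSP6: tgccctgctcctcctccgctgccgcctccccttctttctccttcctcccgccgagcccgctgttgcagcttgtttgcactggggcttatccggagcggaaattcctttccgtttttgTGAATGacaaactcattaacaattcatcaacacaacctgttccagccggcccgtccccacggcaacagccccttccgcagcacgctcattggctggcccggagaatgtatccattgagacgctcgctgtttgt
SPRY2: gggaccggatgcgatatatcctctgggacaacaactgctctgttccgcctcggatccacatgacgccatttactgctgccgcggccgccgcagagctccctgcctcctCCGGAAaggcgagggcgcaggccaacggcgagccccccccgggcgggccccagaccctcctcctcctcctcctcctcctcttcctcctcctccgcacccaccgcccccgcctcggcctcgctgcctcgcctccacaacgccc

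The PHLDA1 window held 1 CCGGAA, 84 to 89 bases before the start, and the SPRY2 window held 1 as well, 137 to 142 bases before the start. The DUSP6 window held no CCGGAA but 1 CIC core, 128 to 133 bases before the start. Among all 35116 windows of this length, 14.5% held CCGGAA and 9.92% held TGAATG. The ETS core GGAA, which is not marked, was in 92.7% of windows. It occurred 6 times in the DUSP6 window, 4 times in that of PHLDA1 and 3 times in that of SPRY2. The AP-1 motif TGANTCA, present in 6.57% of windows, and the SRF CArG box, present in 1.16%, were in none of these 3. The marked motifs do not overlap one another here, and a match describes letters, not binding. In the table, 7 of the 10 members had an entry; DUSP4, DUSP5 and ETV5 did not.

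The libraries held 22329953 estimated counts for untreated cells, 16427206 for the 0.5 nM dose and 16864857 for the 1.5 nM dose, with 5.07% to 5.36% of counts from mitochondrially encoded genes. All 10 listed myeloid markers were measured, and their summed level was 3553 TPM (a level scaled to transcript length that sums to 1000000 per library), 3514 TPM and 4323 TPM in the same order. LYZ alone gave 2676 TPM, 2583 TPM and 3405 TPM of this, and the other 9 summed to 877 TPM, 931 TPM and 918 TPM. The 3 T-cell and 2 erythroid markers were listed at 0 in every library, B-cell markers summed to at most 1.19 TPM, and fibroblast and endothelial markers to at most 0.168 TPM. Of 7 epithelial markers, 3 passed the minimum, the sum was 6.77 TPM, 5.71 TPM and 5.59 TPM, and EPCAM was at 0 throughout. DSP had 32, 27 and 0 counts and DSG2 21, 18 and 0 in the same order, while KRT8 had 33, 32 and 44 and KRT18 56, 24 and 31. A group of 50 genes with whole counts had at most 2 counts at 1.5 nM and at least 10 in each other library, summing to 1128, 998 and 32 counts in the order control, 0.5 nM and 1.5 nM. The epithelial markers DSP and DSG2 meet that rule. No member belongs to that group, and its part in the members' values was not tested. Between treated and control libraries, fewer cells with a transcript and less of it per cell cannot be told apart.

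The members differed widely in level, and the expressed set came down to a few genes. In the control DUSP6 was highest at 24.6 TPM, followed by SPRED2 at 20.4 TPM, ETV5 at 10.5 TPM, SPRY2 at 4.61 TPM, DUSP5 at 3.00 TPM, PHLDA1 at 0.923 TPM and DUSP4 at 0.604 TPM. DUSP6 stood at the 49.8th percentile of the TPM of measured genes in that library, and DUSP4 at the 1.8th. DUSP6 made up 87.2% of the summed TPM of the 3 DUSP genes, SPRY2 98.5% of that of the 3 Sprouty members and SPRED2 99.9% of that of the 2 SPRED members. In TPM SPRED2 led at both doses, but this order turns with the scale: the control TPM multiplied by the count ratio, which holds transcript length fixed, gave 23.4 for DUSP6 and 21.2 for SPRED2 at 0.5 nM, and 18.5 and 18.3 at 1.5 nM. At 1.5 nM PHLDA1 (3.01 TPM) and DUSP5 (2.89 TPM) were close. The spread between cultures is unknown, so neighbours in these orders cannot be separated.

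**Figure D1:**
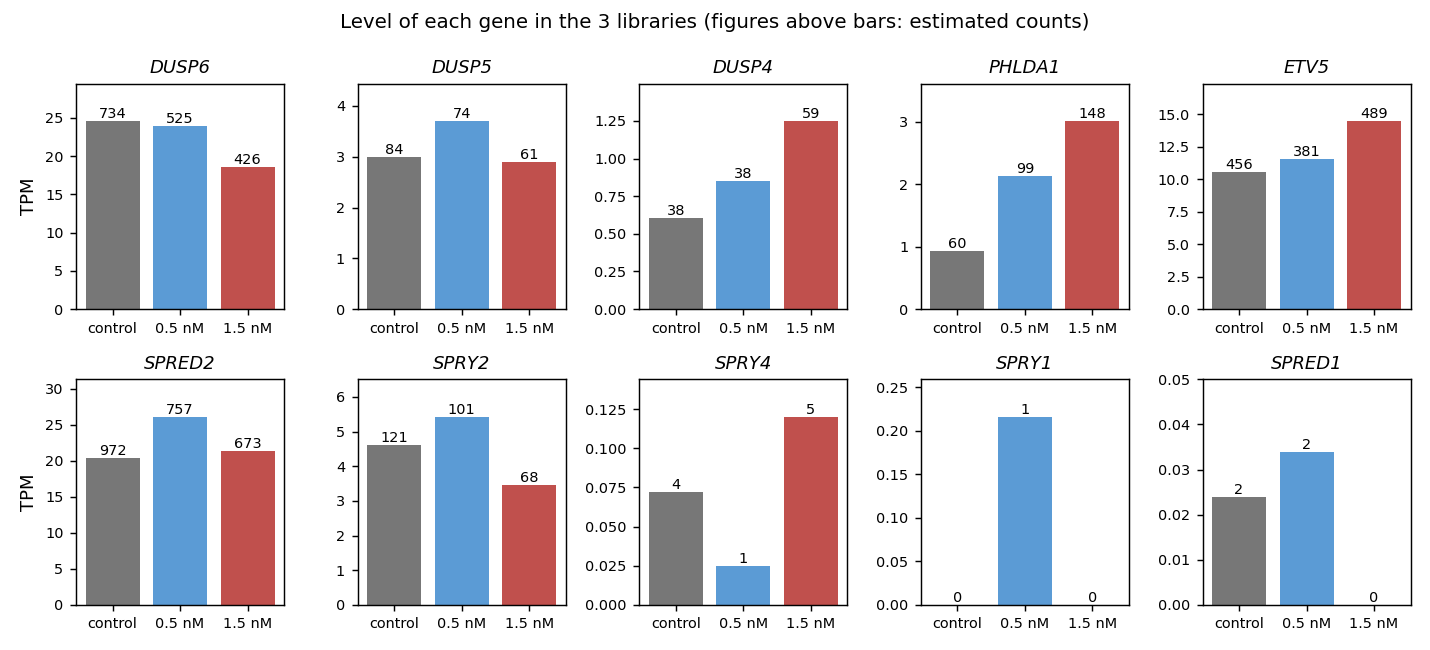
Bars give the TPM of each of the 10 genes in the control, 0.5 nM and 1.5 nM library on a linear axis of its own, with the estimated count above the bar; there is 1 library per bar and no error bar. PHLDA1 goes from 60 to 99 to 148 counts, DUSP6 from 734 to 525 to 426, and SPRY1, SPRY4 and SPRED1 have 5 or fewer counts in every library.

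The 7 measured members did not move as a block. PHLDA1 stood higher at both doses, and DUSP4 and ETV5 stood higher at 1.5 nM, while their 0.5 nM values did not differ from the control beyond counting error. DUSP6 and SPRY2 stood lower at 1.5 nM, and DUSP5 and SPRED2 stayed close to the control. The 95% intervals for counting error at 1.5 nM reached up to -0.02 for SPRY2 and to -0.01 for SPRED2, so both ended just below 0. At 0.5 nM 6 of the 7 had log2 ratios above 0, with a median of 0.16, and at 1.5 nM 3 were above and 4 below 0, with a median of -0.08. The median over all measured genes was 0.00 at both doses. On the TPM scale the members' medians were 0.30 and 0.07, so the sign at 1.5 nM turns with the scale. The medians over all measured genes were 0.06 and 0.03 on that scale.

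By a rule of at least 2-fold, PHLDA1 alone was higher at each dose, and no member was lower. Over all measured genes 0.530% were 2-fold higher at 0.5 nM and 1.47% at 1.5 nM, while 0.230% and 0.574% were 2-fold lower. By a looser rule of at least 25% higher or 20% lower, 2 members were higher and 0 lower at 0.5 nM, where 7.26% and 4.52% of all genes were. At 1.5 nM 3 members, PHLDA1, DUSP4 and ETV5, were higher by the looser rule and 2, DUSP6 and SPRY2, lower, against 12.0% and 8.96% of all genes. All 7 were above 1 CPM in every library, so none passed the minimum through a treated library alone.

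**Figure D2:**
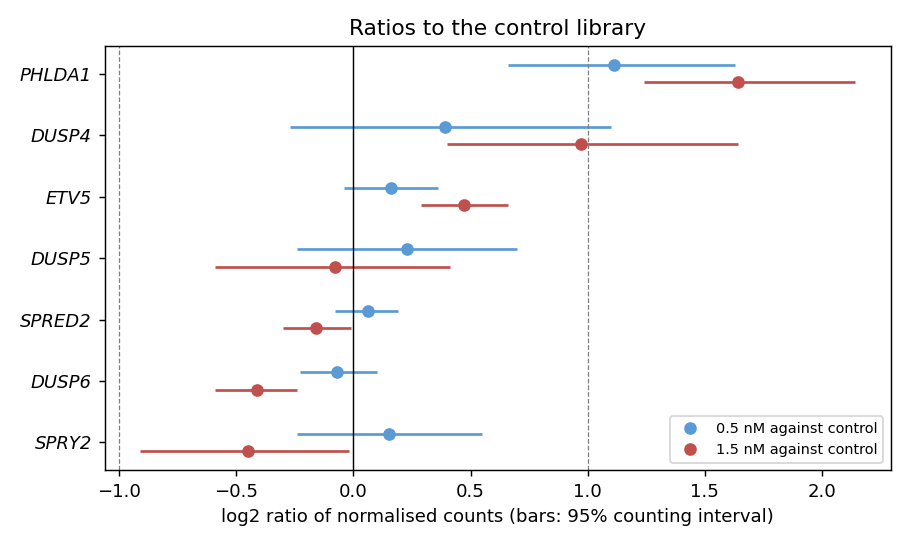
Points give the log2 ratio of normalised counts to the control for the 7 measured members, blue for 0.5 nM and red for 1.5 nM; bars are exact 95% intervals for counting error only and dashed lines mark 2-fold. At 1.5 nM the intervals of PHLDA1, DUSP4 and ETV5 lie above 0, those of DUSP6, SPRY2 and SPRED2 below 0, and that of DUSP5 spans 0.

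DUSP6 (ENSG00000139318) encodes a cytoplasmic phosphatase with a strong preference for ERK. Its counts were 734 without treatment, 525 at the lower dose and 426 at the higher, which is 33.3 CPM, 31.8 CPM and 25.1 CPM after scaling. The 0.5 nM library thus matched the control within counting error and the 1.5 nM library was the lowest. Relative to untreated cells the log2 ratio was -0.07 at 0.5 nM, with a 95% counting interval from -0.23 to 0.10, and -0.41 at 1.5 nM, from -0.59 to -0.24. Of all measured genes, 5.3% had a lower ratio at 1.5 nM.

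DUSP5 (ENSG00000138166) encodes a nuclear phosphatase that acts on ERK. Its counts were 84, 74 and 61, or 3.81 CPM, 4.48 CPM and 3.59 CPM. The highest value was at 0.5 nM, but the log2 ratios of 0.23 (-0.24 to 0.70) and -0.08 (-0.59 to 0.41) both had intervals that span 0, so a difference was not detectable at this depth.

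DUSP4 (ENSG00000120875), whose product is a nuclear phosphatase of ERK and of the stress kinases, was the scarcest measured member. Untreated cells gave 38 counts, the 0.5 nM library 38 and the 1.5 nM library 59, or 1.72 CPM, 2.30 CPM and 3.47 CPM. Its log2 ratio was 0.39 (-0.27 to 1.10) at 0.5 nM and 0.97 (0.40 to 1.64) at 1.5 nM, a 1.95-fold difference just short of the 2-fold rule. Thus among the 3 DUSP members alone, the scarcest was higher and the most abundant lower at 1.5 nM. The share of DUSP6 in the summed TPM of these 3 was 81.8% there.

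SPRY2 (ENSG00000136158), which restrains receptor signalling to RAS, was the only one of the 3 Sprouty members with more than 5 counts in any library. The control held 121 counts, the 0.5 nM library 101 and the 1.5 nM library 68, or 5.49 CPM, 6.12 CPM and 4.0 CPM. The 1.5 nM library was the lowest, and the 0.5 nM library did not differ from the control beyond counting error. The log2 ratio was 0.15 (-0.24 to 0.55) at 0.5 nM and -0.45 (-0.91 to -0.02) at 1.5 nM, where 4.3% of all genes had a lower ratio.

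SPRY4 had 4, 1 and 5 counts in the same order, and its log2 ratio at 1.5 nM of 0.47 had an interval from -1.52 to 3.03. SPRY1 had a count of 1 at 0.5 nM and 0 elsewhere. SPRED1 had 2, 2 and 0 counts. For these genes no difference could be read, and the floor of 3 counts corresponds to 0.136 CPM, 0.182 CPM and 0.177 CPM in the 3 libraries.

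SPRED2 (ENSG00000198369), whose product brings the RAS inactivator neurofibromin to the membrane, carried nearly all RNA of the 2 SPRED members. It had 972, 757 and 673 counts, or 44.1 CPM, 45.8 CPM and 39.6 CPM. These gave log2 ratios of 0.06 (-0.08 to 0.19) and -0.16 (-0.30 to -0.01). The deposited TPM told another order, with 20.4 TPM in the control, 26.1 TPM at 0.5 nM and 21.4 TPM at 1.5 nM.

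On the TPM scale the log2 ratio of SPRED2 was 0.35 at 0.5 nM and 0.07 at 1.5 nM, above the counting interval in both comparisons and of opposite sign at 1.5 nM. Counts and TPM differ through the transcript length assigned to a gene in each library, and the length implied by the ratio of count to TPM was 14.5% shorter for SPRED2 at 0.5 nM than in the control and 12.0% shorter at 1.5 nM. Of all genes with 30 or more counts per library and more than 1 TPM, 4.7% and 7.0% changed by as much. ETV5 changed by 6.8% and 3.8%, and every other measured member by at most 2.8%. RefSeq lists a pair of starts for SPRED2; which transcripts made up its counts was not tested.

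**Figure D3:**
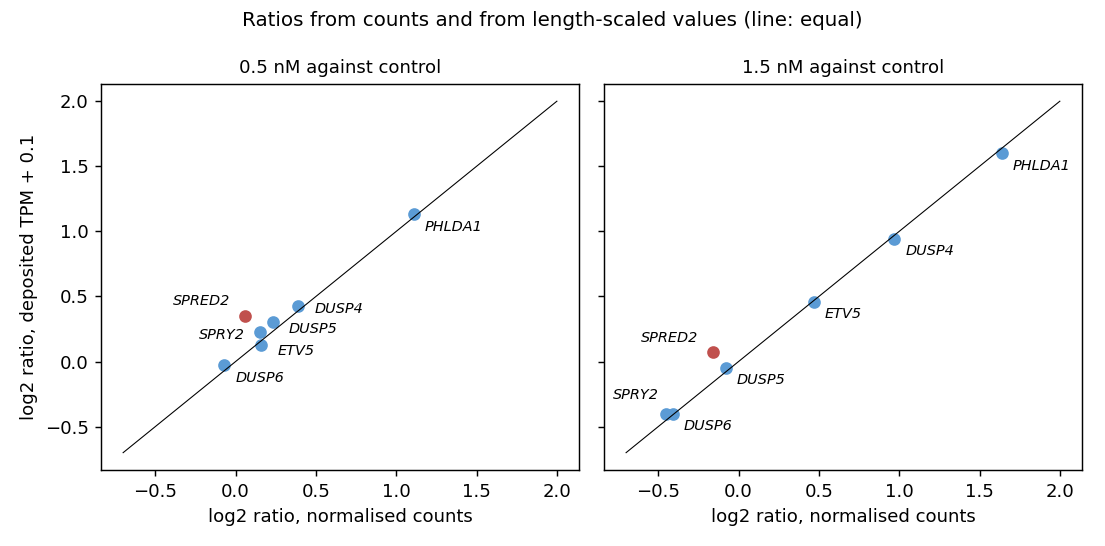
Each point is a measured member, with the log2 ratio from normalised counts on the x axis and from deposited TPM with a pseudocount of 0.1 on the y axis, for 0.5 nM (left) and 1.5 nM (right) against the control; the line marks equal values. SPRED2, in red, lies above the line at both doses, with 0.06 against 0.35 and -0.16 against 0.07.

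ETV5 (ENSG00000244405) encodes an ETS factor of the PEA3 group, whose transcription depends on ERK in many cell types. Its counts of 456, 381 and 489 correspond, in the order control, 0.5 nM and 1.5 nM, to 20.7 CPM, 23.1 CPM and 28.8 CPM. The 1.5 nM library was the highest, and the 0.5 nM library was within counting error of the control. The log2 ratio was 0.16 (-0.04 to 0.36) at 0.5 nM and 0.47 (0.29 to 0.66) at 1.5 nM. Its PEA3 relative ETV4 had 2.67 TPM, 3.15 TPM and 3.74 TPM, with a log2 ratio of 0.48 (-0.04 to 1.03) at 1.5 nM.

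PHLDA1 (ENSG00000139289) encodes a protein with a pleckstrin-homology-like domain that has been tied to cell death and to restraint of receptor signalling. The control gave 60 counts, the 0.5 nM library 99 and the 1.5 nM library 148, or 2.72 CPM, 5.99 CPM and 8.71 CPM. Both treated libraries were above the control, and the 1.5 nM library was the highest. The 2.16-fold difference at 0.5 nM had a log2 ratio of 1.11 (0.66 to 1.63), and the 3.11-fold difference at 1.5 nM had 1.64 (1.24 to 2.14). These lay above 99.6% and 99.7% of all measured genes.

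**Figure D4:**
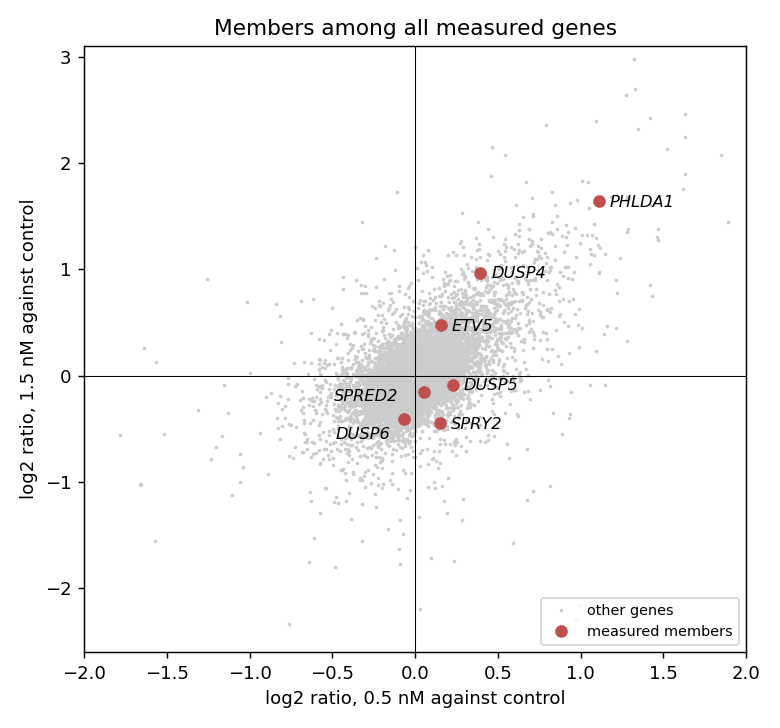
Each dot is a gene, with its log2 ratio to the control at 0.5 nM on the x axis and at 1.5 nM on the y axis; both axes share the control library, and 20 of 11322 genes lie outside the frame. PHLDA1 lies at 1.11 and 1.64, while DUSP6 (-0.07 and -0.41) and SPRY2 (0.15 and -0.45) lie below the horizontal line.

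The treated libraries were then set against each other. SPRY2 was the lowest member at 1.5 nM against 0.5 nM, with a log2 ratio of -0.60 (-1.08 to -0.15), and DUSP6 had -0.34 (-0.53 to -0.16). SPRED2 had -0.21 (-0.36 to -0.06), and DUSP5 had -0.31 (-0.83 to 0.19). Higher values were 0.57 (-0.02 to 1.22) for DUSP4, 0.53 (0.16 to 0.92) for PHLDA1 and 0.32 (0.12 to 0.52) for ETV5.

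No member was 2-fold apart between the doses, where 0.477% of all genes were higher and 0.495% lower. By the looser rule 2 members were higher and 2 lower, with ETV5 and DUSP5 just short of it, against 8.46% and 7.11% of all genes. The median of the 7 ratios was -0.21. The tenth of genes with the lowest transcript GC content had a median of -0.10 in this comparison and the tenth with the highest 0.15. With the GC trend removed DUSP5 had -0.36, which made 3 lower members.

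The genes whose pair of ratios to the control lay closest to that of PHLDA1 were found among 7657 genes with symbols, whole counts and a mean of 5 or more CPM. By Euclidean distance over these 2 ratios, which rest on 3 libraries and share the control, they were SEMA6B (distance 0.084), IGF1 (0.177), CYP1B1 (0.186), CXCL8 (0.284) and HIPK2 (0.322). SEMA6B, a semaphorin gene, had log2 ratios of 1.05 and 1.58. CXCL8, which encodes a neutrophil-attracting chemokine, had 0.97 and 1.39. For DUSP6, which sits in a dense part of the distribution, the closest were HTATSF1 (0.008), TRDMT1 (0.013), ANKMY2 (0.014), SKA2 (0.018) and WDCP (0.020), all with -0.40 to -0.42 at 1.5 nM.

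Upstream of the members, the receptor and the median of the cascade stayed close to the control. FLT3 stood at 258.5 TPM, 262.2 TPM and 234.9 TPM. From counts its log2 ratios were -0.05 (-0.09 to -0.01) at 0.5 nM and -0.17 (-0.22 to -0.13) at 1.5 nM, so the order at 0.5 nM turns with the scale. All 27 listed genes of the ERK cascade were measured, with medians of 0.04 at 0.5 nM and 0.03 at 1.5 nM. None passed the looser rule at 0.5 nM, and at 1.5 nM 2 were higher and 1 lower, where 12.0% and 8.96% of all genes were. MKNK1, a kinase activated by ERK, had 0.45, the adaptor gene GAB2 had 0.34 and HRAS had -0.34. MKNK1 has a count that is not whole, so reads shared with another gene cannot be separated from its own.

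Among 17 other MAPK phosphatases and receptor feedback genes, 11 were measured, with medians of 0.09 and 0.11. At 1.5 nM 2 were higher and 1 lower by the looser rule, which is near the 12.0% and 8.96% of all genes. DUSP10, a phosphatase of the JNK and p38 kinases, had 316, 330 and 400 counts and log2 ratios of 0.48 (0.25 to 0.71) and 0.71 (0.50 to 0.93). DUSP7, a close relative of DUSP6 that also prefers ERK, had 1119, 795 and 689 counts and ratios of -0.08 and -0.32 (-0.46 to -0.19). SPRY3 had 0.36 at 1.5 nM from 64 counts in each of the control and 1.5 nM libraries, with an interval that spans 0 (-0.15 to 0.90).

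Of 20 other ERK target genes, 9 were measured, with medians of 0.22 and 0.37. At 0.5 nM 4 were at least 25% higher, at 1.5 nM 5 were, and none was 20% lower at either dose. Over all genes 7.26% and 12.0% were higher, and 4.52% and 8.96% lower. HBEGF, which encodes a ligand of the EGF receptor, had 111, 176 and 192 counts and log2 ratios of 1.07 (0.73 to 1.44) and 1.15 (0.82 to 1.52). FOSL1, an AP-1 gene, had 0.48 and 0.58. MYC, named for its level, gave 280 TPM of the 386 TPM summed over the list in the control. Its log2 ratios were -0.21 (-0.26 to -0.15) and -0.23 (-0.28 to -0.18). Of the 9 measured genes, 7 had ratios above 0 at 0.5 nM and 8 at 1.5 nM. The 1.5 nM library thus held more PHLDA1, HBEGF and FOSL1 RNA and less DUSP6, SPRY2 and MYC RNA than the control.

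The 11 unmeasured genes of that list went both ways on few counts. In the order control, 0.5 nM and 1.5 nM, ETV1 had 11, 14 and 16 counts, IER3 had 13, 17 and 19, TNFRSF12A had 14, 13 and 21, and EGR3 had 4, 4 and 8. EGR2 had 9, 17 and 4 counts, with log2 ratios of 1.14 (0.09 to 2.68) at 0.5 nM and -0.59 (-2.95 to 1.05) at 1.5 nM. CCND1, the cyclin D1 gene, had 24, 5 and 0 counts. With the 0 set to the floor of 3 counts per library, its 1.5 nM level was 6.17-fold lower than the observed level of untreated cells. That figure leaves out the counting error of the 24 counts, and the counting interval of the log2 ratio reached up to -2.21. Already at 0.5 nM its log2 ratio was -1.54 (-3.59 to -0.43). The 50 genes nearly missing at 1.5 nM were chosen with at least 10 counts at 0.5 nM, so CCND1, with 5, could not be among them. EPHA4 had 8, 4 and 0 counts and VGF had 10, 6 and 1, while EPHA2, with 3, 3 and 0, never exceeded the floor. Whether these counts share a source with those of the 50 genes was not tested. All genes of this paragraph were singled out after their values were seen.

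The 12 ETS, SRF and CIC factor genes had medians of 0.01 and -0.02, with 2 higher by the looser rule at 0.5 nM, against 7.26% of all genes, and none past it at 1.5 nM. ETS2 had -0.30, ETS1 0.30 and SRF 0.25. Among 13 JNK and p38 kinase genes the medians were -0.02 and -0.09. By the looser rule 1 was lower at each dose, where 4.52% and 8.96% of all genes were, and none was higher. MAP2K6, an activator of p38, had 235, 153 and 86 counts and a log2 ratio of -1.06 (-1.45 to -0.71) at 1.5 nM. It was the only measured gene of the 6 pathway lists that was 2-fold lower at that dose, where 0.574% of all genes were. MAP3K5 had -0.25 and MAP2K3 0.24. Of 11 Sprouty and SPRED partners 10 were measured, with medians of 0.05 and 0.01. In that list TESK1, a kinase bound by Sprouty proteins, had 0.30 and DYRK1A had -0.19 at 1.5 nM.

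**Figure D5:**
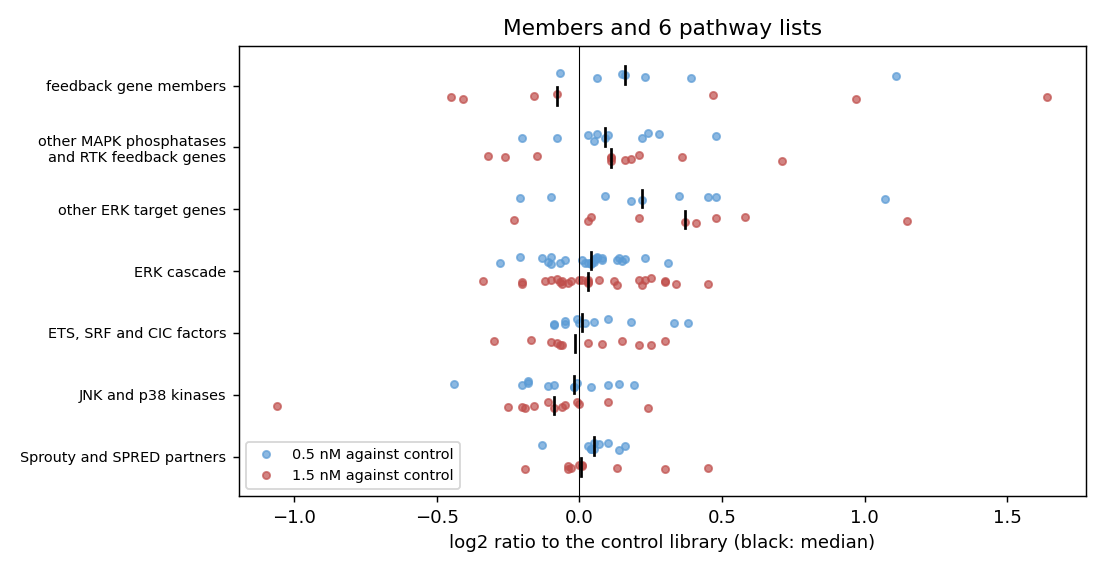
Dots give the log2 ratio to the control of each measured gene, blue at 0.5 nM and red at 1.5 nM. Rows are the members, labelled feedback gene members with ETV5 included, and 6 pathway lists. Black bars mark the medians, and some genes stand in more than 1 list. The members run from -0.45 to 1.64 at 1.5 nM, while the 27 ERK cascade genes have a median of 0.03.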

How the data were processed

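RNA-seq of 3 libraries, 1 per group, was used. The authors deposited estimated counts per gene without normalisation, of which 12.0% to 12.7% per library are not whole, and TPM values scaled to gene length. The submitters' processing notes name HISAT2, StringTie 1.3.1, fastp 0.18.0, edgeR and DESeq2; what each did is not given in the sources used here, nor are build and annotation.

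Counts were rounded, genes averaging at least 1 CPM over the libraries were kept, and libraries were scaled with TMM (edgeR 4.0.16 under R 4.3.3; factors 0.987, 1.005 and 1.008). Log2 CPM used a prior count of 2. Intervals are exact Clopper-Pearson intervals at 95% from the counts of both libraries. Like the floor of 3 counts, they reflect counting error alone. They take each count as a separate observation, which PCR copies of a molecule are not, so such copies would make them too narrow. The edgeR test planned for replicated groups was not run, since there were no replicates. GENCODE release 29 gave transcript GC content for 99.4% of genes. Python 3.11.15, numpy 2.4.6, pandas 2.3.3 and scipy 1.17.1 were used, and the steps were tested on simulated data.

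All members are named, with FLT3, up to 3 measured genes per list with the largest absolute ratio at 1.5 nM, and the 5 closest genes to PHLDA1 and DUSP6. The members and lists were chosen with earlier results of these data known. Alternatives were DESeq2 1.42.0 size factors, total counts, TPM, a prior count of 0.5, other minimums, genes with whole counts and removal of the GC trend.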

Additional observations from a re-analysis of the deposited data

How the results depend on the processing

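Under 8 alternatives, 160 of 162 member ratios stayed within their main counting interval. The exceptions were SPRED2 on the TPM scale with a pseudocount of 0.1, with 0.35 at 0.5 nM and 0.07 at 1.5 nM, the latter the only member ratio to change sign. On that scale the members' median was 0.30 at 0.5 nM and 0.07 at 1.5 nM, a change of sign at 1.5 nM, where the all-gene medians were 0.06 and 0.03. At 0.5 nM 3 members in place of 2 were at least 25% higher, as were 12.0% of all genes in place of 7.26%. Under the other alternatives the members' median was 0.15 to 0.18 and -0.15 to -0.05. Having no minimum adds SPRY1, SPRY4 and SPRED1 with 5 or fewer counts. Then 1 member was at least 20% lower at 0.5 nM against the control, as were 11.9% of all genes. At 1.5 nM against 0.5 nM 1 member was 2-fold higher and 1 was 2-fold lower. In that comparison 4 members were at least 20% lower, as were 17.2% of all genes. A minimum of 5 CPM leaves 5 members and drops DUSP4 and DUSP5. Of these 5, 1 was at least 25% higher at 0.5 nM and 1 at 1.5 nM against 0.5 nM, where 4.08% and 5.43% of all genes were. Of the 9773 genes that passed that minimum, 15 were 2-fold higher and 1 lower at 0.5 nM (60 and 26 of 11322 as reported). There were 42 and 16 at 1.5 nM (166 and 65), and 4 and 13 between doses (54 and 56). With no minimum these were 535 and 268, 722 and 631, and 540 and 869, of 15932 genes. Depth limits SPRY1, SPRY4 and SPRED1 most, with 5 or fewer counts, and among measured members DUSP4, whose interval at 0.5 nM was the widest. No paired analysis was possible because each group has 1 library.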

Other observations

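The deposited table annotates 286 genes to the KEGG MAPK signalling pathway, DUSP4, DUSP5 and DUSP6 among them, and 180 were measured. Their median log2 ratio was 0.04 at both doses against the control. At 0.5 nM 3 (1.67%) were at least 2-fold higher and none lower, where 0.530% and 0.230% of all genes were, and at 1.5 nM 6 (3.33%) were higher and 1 (0.556%) lower, where 1.47% and 0.574% of all genes were. The 6 were chosen by that rule after their values were seen. IGF1, a growth factor gene, had counts of 130, 239 and 326 in the order control, 0.5 nM and 1.5 nM. JUN, the AP-1 factor gene, had 118, 175 and 199 counts. RELB, an NF-kB subunit gene, had 93, 83 and 160 counts, PDGFA, a ligand gene, 46, 45 and 78, PLA2G4C 13, 22 and 40, and CACNA1E 14, 16 and 28. JUN stood higher at both doses, as PHLDA1 did, while RELB and PDGFA reached their log2 ratios of 1.14 and 1.10 at 1.5 nM from 0.25 and 0.37 at 0.5 nM. MAP2K6 was the lower gene.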
